A study of Mus musculus with 12 samples.

Results

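The family of miR-23, miR-27 and miR-24 is encoded in a pair of paralogous clusters, one with the a copies (miR-23a, miR-27a and the Mir24-2 hairpin) and one with the b copies (miR-23b, miR-27b and Mir24-1). Its 5 main mature products were followed here as the array entries named exactly mmu-miR-23a-3p, mmu-miR-23b-3p, mmu-miR-27a-3p, mmu-miR-27b-3p and mmu-miR-24-3p (5 of 576 entries; the prefix for mouse is dropped from here on). All 5 were among the 118 miRNAs that could be tested, meaning that in 1 or more groups every one of the 3 arrays detected them. RNA came from LLC1, a Lewis lung carcinoma line of the mouse grown in culture, and the labels give 4 groups of 3 biological replicates with 1 array each: untreated cells (control), a single 2 Gy dose, a single 10 Gy dose, and a fractionated dose of 5x2 Gy, which adds up to 10 Gy. Irradiated cells were collected 4 h after ionizing radiation. The groups shared the same line and culture medium, and all of the data come from this 1 line. Defining miRNAs of epithelium were not detected on any array (0 of 5, the miR-200 family), whereas 4 of 5 fibroblast markers were tested, with miR-199a-3p, miR-199a-5p and miR-214-3p detected on 12 arrays. The other fibroblast markers, miR-143-3p and miR-145a-5p, were detected on 7 and 0 arrays. Of 5 blood cell markers 2 were tested, both arms of miR-142a: miR-142a-3p, detected on 12 arrays, and miR-142a-5p, detected on 6. The other blood cell markers, miR-223-3p, miR-150-5p and miR-451a, were detected on 0 arrays. The part of blood cell markers in the results was not tested.

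Each cluster is transcribed as one long RNA from which the 3 hairpins are cut, so that the products of a cluster share a transcript but can differ in their processing and decay. The a and b copies of miR-23 and of miR-27 have the same seed, the stretch at the 5′ end that pairs with target mRNAs, and are taken to repress largely the same targets. miR-24 is known in human blood cells as a repressor of H2AX, the histone variant that is phosphorylated around DNA double-strand breaks, which is the reason for following the family after radiation.

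The mature sequences are shown because they say which members the array could confuse and which locus each signal can come from. They are given 5′ to 3′ as RefSeq lists them for GRCm38.p6, with the seed (bases 2 to 8) in capitals. A mature entry was matched for 4 of the 5 members, all but miR-23b-3p, so the miR-23 copies were not compared base by base.
miR-23a-3p: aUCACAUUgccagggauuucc
miR-27a-3p: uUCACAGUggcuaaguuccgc
miR-27b-3p: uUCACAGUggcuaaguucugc
miR-24-3p: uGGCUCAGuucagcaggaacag
The a cluster lies on the plus strand at chr8:84208518-84208921 (GRCm38.p6), a span of 404 bases with 3 hairpins, and within the bounds of no other gene of the RefSeq table. The b cluster spans 792 bases on the plus strand at chr13:63300484-63301275 and lies within the bounds of Aopep, an aminopeptidase gene. Mature miR-23a-3p occupies chr8:84208563-84208583, miR-27a-3p chr8:84208727-84208747 and miR-27b-3p chr13:63300760-63300780. The letters of miR-24-3p are the same at chr8:84208875-84208896 (Mir24-2) and at chr13:63301251-63301272 (Mir24-1), so its signal is the sum of both loci and cannot be divided between the clusters. Mature miR-27a-3p and miR-27b-3p share the seed UCACAGU and differ by 1 base, C19U counted from the 5′ end of miR-27a-3p. Whether a probe for one copy also took up the other was not tested, so the values of the copies are uncertain to that extent.

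The arrays were not equally bright, and brightness followed the slide. Brightness here is the 75th percentile of the processed signal over the probes detected on all arrays, by which each array was divided. On slide 1 were the 3 control arrays, the 3 arrays of 2 Gy cells and replicates 1 and 2 of 10 Gy, with a brightness of 110.5 to 897.3, and slide 2 held all 5x2 Gy arrays and 10 Gy replicate 3, with a brightness of 867.3 to 1102. The number of miRNAs detected was 127 ± 8.89 in the 5x2 Gy group and 74 ± 25.5 in the control group (mean ± SD, n = 3 each), with a range of 48 to 137 over the 12 arrays. No slide held both 5x2 Gy and control arrays, or both 5x2 Gy and 2 Gy arrays. For these pairs the slide and the treatment are linked only through the 10 Gy arrays.

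Levels are given as log2 of the signal relative to that percentile, and levels of different miRNAs are not compared, since each has its own probes. miR-24-3p stood at -0.33, -0.73 and -0.59 on control replicates 1 to 3, at -0.55, -0.56 and -0.46 on the 2 Gy arrays, at -0.49, -0.43 and -0.44 on the 10 Gy arrays, and at -0.16, -0.28 and -0.23 on the 5x2 Gy arrays. All 3 arrays of the 5x2 Gy group were above all 9 arrays of the other groups, the nearest of which was control replicate 1. The same 3 arrays were also the brightest and were all on slide 2. In the pairwise comparisons of 5x2 Gy with another group, 26.3% to 33.1% of all tested miRNAs did not overlap. How many lay apart from all 9 arrays at once was not counted. The group means were -0.55 ± 0.20 in control cells, -0.53 ± 0.05 in 2 Gy cells, -0.45 ± 0.03 in 10 Gy cells and -0.23 ± 0.06 in 5x2 Gy cells (SD, n = 3 each).

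The level of miR-23a-3p, which has glutaminase among its known targets in human cells, was -0.84, -0.08 and -0.87 on the control arrays. It was -0.23, -0.74 and -0.01 on the 2 Gy arrays, -0.04, 0.01 and -0.78 on the 10 Gy arrays, and -0.36, -0.55 and -0.48 on the 5x2 Gy arrays. The control, 2 Gy and 10 Gy groups each held both high and low arrays and overlapped throughout, while the 5x2 Gy arrays lay together in the middle. Its b copy, miR-23b-3p, ran in parallel, with levels of -2.77, -2.14 and -2.72 in control cells, -2.29, -2.66 and -1.99 in 2 Gy cells, -2.07, -1.93 and -2.79 in 10 Gy cells, and -2.32, -2.35 and -2.34 in 5x2 Gy cells. The same arrays were high and low for both copies: control replicate 2, 2 Gy replicate 3 and 10 Gy replicates 1 and 2 were high, and control replicates 1 and 3, 2 Gy replicate 2 and 10 Gy replicate 3 were low.

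miR-27a-3p, known in mouse and human cells as a repressor of adipocyte differentiation genes, had levels of -0.70, -0.35 and -0.77 on the control arrays, -0.43, -0.64 and -0.42 on the 2 Gy arrays, -0.41, -0.35 and -0.96 on the 10 Gy arrays, and -0.67, -0.69 and -0.68 on the 5x2 Gy arrays. Its lowest array was 10 Gy replicate 3, the one 10 Gy array on slide 2. miR-27b-3p had levels of -2.97, -2.72 and -3.07 in control cells, -3.13, -3.05 and -2.99 in 2 Gy cells, -3.10, -3.07 and -3.12 in 10 Gy cells, and -3.04, -2.90 and -2.96 in 5x2 Gy cells. Its highest value came from control replicate 2, the dimmest array, on which it was not well above background. It was detected on 11 arrays, against 12 for each of the other members.

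**Figure D1:**
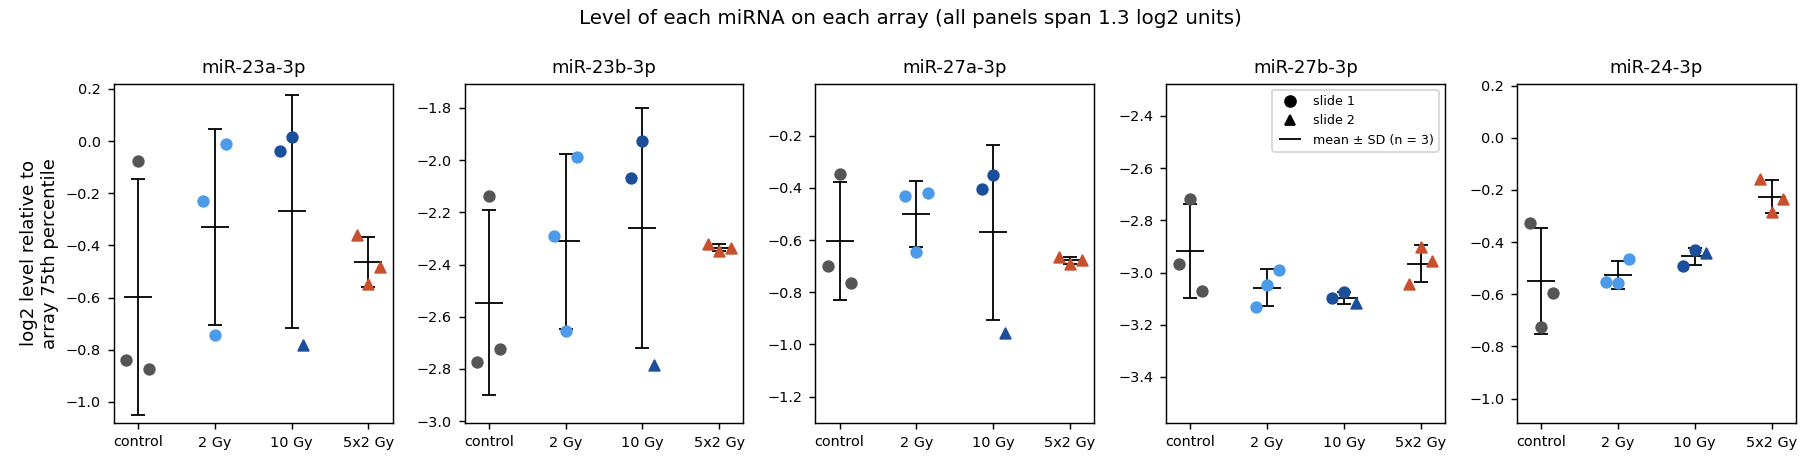
Level of each member on each array, as log2 of the signal relative to the array's 75th percentile, in control, 2 Gy, 10 Gy and 5x2 Gy cells; circles are arrays of slide 1, triangles arrays of slide 2, and bars the mean ± SD of 3 arrays. The 5x2 Gy arrays of miR-24-3p, at -0.28 to -0.16, lie above all other arrays, and the 3 arrays of a group lie far apart for miR-23a-3p and miR-23b-3p except after 5x2 Gy. In the pairwise comparisons of 5x2 Gy with another group, 26.3% to 33.1% of all tested miRNAs did not overlap.

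After fractionated radiation, miR-24-3p was 1.25-fold higher than in control cells, the only one of the 5 members to pass the test. Its level was -0.23 ± 0.06 in 5x2 Gy cells and -0.55 ± 0.20 in control cells, a difference of 0.32 (SE 0.09, 95% interval 0.12 to 0.52) with an adjusted p of 0.0453 by limma with Benjamini-Hochberg adjustment over the 118 miRNAs. Of all miRNAs tested, 12.7% were called in this comparison, all of them higher, so 1 member of 5 is close to that background. The 118 include miRNAs at the detection floor, the lowest level given, on every array. In this comparison 59 had a positive and 39 a negative difference, and the rest had none and could not be called. Shares over all tested miRNAs, in this and the other comparisons, are therefore low for miRNAs with a measured level. In bulk RNA, a change in every cell and a change in the make-up of the culture cannot be told apart. Both probes of miR-24-3p gave the same direction, with differences of 0.34 and 0.31 and no overlap between the groups. The 71 miRNAs that lay above the detection floor on all arrays had a median difference of 0.17, and miR-24-3p exceeded that median by 0.15.

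The call for miR-24-3p was near the threshold and was lost under most other settings. Over 19 other settings of scaling, background correction, filter and model, its difference was positive in 19 and passed in 7. With the slide as a block it was 0.31 (adjusted p = 0.503 by limma), an estimate that reaches control cells only through 10 Gy replicate 3, and with array brightness as a covariate it was 0.26 (adjusted p = 0.156). Centring each array on the median gave 0.11 (adjusted p = 0.659). When arrays were left out singly, it ran from 0.21 to 0.43, with adjusted p-values of 0.00270 to 0.126; the call held without control replicate 1 and was lost without any 1 of the other 11 arrays.

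**Figure D2:**
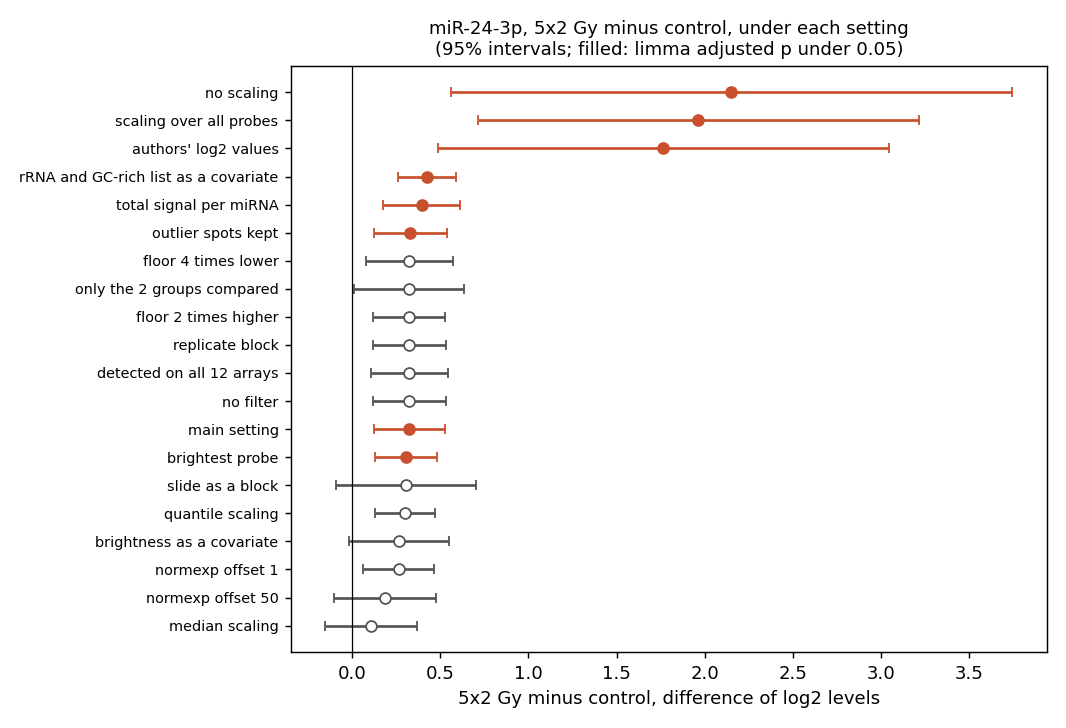
Difference of miR-24-3p between 5x2 Gy and control cells under each setting (points, on a log2 scale, with 95% intervals); filled points have a limma adjusted p under 0.05. The value stays above 0 in every setting shown, from 0.11 with median scaling to 2.15 with no scaling, and the settings above 1 are those that leave the difference in brightness between arrays in the values.

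The other members did not pass between 5x2 Gy and control cells. The difference was 0.13 for miR-23a-3p (95% interval -0.54 to 0.81, limma adjusted p = 0.934) and 0.21 for miR-23b-3p (-0.40 to 0.82, adjusted p = 0.772). It was -0.07 for miR-27a-3p (-0.46 to 0.31, adjusted p = 0.934) and -0.05 for miR-27b-3p (-0.24 to 0.14, adjusted p = 0.865). The intervals of miR-23a-3p and miR-23b-3p reach a change of 1.75-fold and 1.76-fold upward. Of the 5 members, 3 had positive and 2 negative differences, with a median of 0.13, against a median of 0.17 over the 71 miRNAs above the floor on all arrays and 0.0004 over all miRNAs tested, many of which have levels at the floor; 1 member, miR-24-3p, had groups that did not overlap, which was so for 33.1% of all tested miRNAs. The brighter probe of miR-27b-3p gave 0.16 and its dimmer probe, which was at the floor on 7 arrays, gave -0.26, so its probes disagreed in direction.

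The values of the miR-23 and miR-27a members in this comparison moved with the slide and the brightness. With the slide as a block, the difference between 5x2 Gy and control cells was 0.91 for miR-23a-3p (limma adjusted p = 0.403), 1.00 for miR-23b-3p (adjusted p = 0.313) and 0.50 for miR-27a-3p (adjusted p = 0.313). With brightness as a covariate, miR-23a-3p and miR-23b-3p passed, at 0.84 (limma adjusted p = 0.0165) and 0.81 (adjusted p = 0.0252), in a fit that called 28 of the 118 miRNAs (23.7%). The 3 arrays of 5x2 Gy cells, at a brightness of 1004 to 1102, were all brighter than the control arrays, at 110.5 to 703.3, so that term and the treatment overlap. Without these terms the differences of miR-23a-3p and miR-23b-3p were 0.13 and 0.21, far below the values with them. The size of both therefore depended on how slide and brightness were treated.

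After a single dose of 10 Gy, none of the 5 members passed, against 0.847% of all tested miRNAs, which is 1 miRNA. At an unadjusted p under 0.05 there were 0 of the 5, against 20.3% of all tested. The difference from control cells was 0.33 for miR-23a-3p (95% interval -0.35 to 1.00), 0.28 for miR-23b-3p (-0.32 to 0.89), 0.09 for miR-24-3p (-0.11 to 0.30) and 0.03 for miR-27a-3p (-0.35 to 0.42), with limma adjusted p-values of 0.608 to 1. miR-27b-3p was lower on all 3 of the 10 Gy arrays than on the control arrays, a difference of -0.18 (-0.37 to 0.01, adjusted p = 0.261), but 1 of those control arrays was the one on which it was not detected. Neither of its probes alone separated the groups: the brighter gave -0.06 (limma adjusted p = 0.781), and the dimmer, at the floor on all 3 of the 10 Gy arrays, gave -0.30. Groups that did not overlap were seen for 15.3% of all tested miRNAs in this comparison. On slide 1 alone, where 10 Gy and control arrays were side by side, miR-23a-3p and miR-23b-3p differed by 0.59 and 0.55 (limma adjusted p = 0.452 each), and with brightness as a covariate they passed, at 0.58 (adjusted p = 0.0269) and 0.50 (adjusted p = 0.0451), in a fit that called 26 of the 118 miRNAs (22.0%), against 1 without it.

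After 2 Gy, again none of the 5 members passed, and limma called 0% of the tested miRNAs at the adjusted threshold. At an unadjusted p under 0.05 there were 0 of the 5 members and 11 of the 118 miRNAs (9.32%). Relative to control cells, miR-23a-3p differed by 0.27 (95% interval -0.41 to 0.94), miR-23b-3p by 0.24 (-0.37 to 0.84), miR-27a-3p by 0.10 (-0.28 to 0.49), miR-24-3p by 0.02 (-0.18 to 0.23) and miR-27b-3p by -0.14 (-0.33 to 0.05). The adjusted p-values were 0.611 to 1, and the 2 Gy and control arrays overlapped for all 5 members, while they did not for 6.78% of all tested miRNAs. The comparisons with control cells share the control arrays and are not independent of each other.

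The same total dose given in fractions or at once was compared between the 5x2 Gy and 10 Gy groups. The time taken to give fractions also differs from that of a single dose, and its part in the results was not tested. miR-24-3p was higher on all 3 of the 5x2 Gy arrays than on the 10 Gy arrays, by 0.23 (95% interval 0.03 to 0.43), but did not pass the adjustment (unadjusted p = 0.0306, adjusted p = 0.258 by limma). Called miRNAs made up 2.54% of those tested, and none of the 5 members was among them. An unadjusted p under 0.05 was reached by 1 of the 5 members and by 15.3% of all tested miRNAs. Groups that did not overlap were found for 2 of the 5 members, miR-24-3p and miR-27b-3p (0.13, adjusted p = 0.551), and for 26.3% of all tested miRNAs. The differences of miR-23a-3p, miR-23b-3p and miR-27a-3p were -0.19, -0.07 and -0.11. Within slide 2, where 3 arrays of 5x2 Gy cells stood beside 1 array of 10 Gy cells, all 5 members were higher after 5x2 Gy: by 0.32 for miR-23a-3p, 0.45 for miR-23b-3p, 0.28 for miR-27a-3p, 0.15 for miR-27b-3p and 0.22 for miR-24-3p. That subset was chosen after the data were seen, and its lone 10 Gy array has no measured spread of its own, so these values are given as a description. Within slide 2, the 71 miRNAs above the floor on all arrays also had a higher median after 5x2 Gy, by 0.11.

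Against 2 Gy, the same 3 arrays of the 5x2 Gy group had higher miR-24-3p, by 0.30 (95% interval 0.10 to 0.50, limma adjusted p = 0.0982). It was the one member with an unadjusted p under 0.05, against 21.2% of all tested miRNAs. miR-27a-3p was lower on all 3 of the 5x2 Gy arrays, a difference of -0.18 (adjusted p = 0.736), so that 2 of 5 members did not overlap, against 30.5% of all tested miRNAs. No member passed, and 4.24% of all tested miRNAs did. Between the 10 Gy and 2 Gy groups the 5 differences ran from -0.07 for miR-27a-3p to 0.07 for miR-24-3p, with limma adjusted p-values of 1 and 0 members at an unadjusted p under 0.05; 0% of the tested miRNAs were called (2, or 1.69%, at an unadjusted p under 0.05), and groups did not overlap for 5.93% of them and for 0 of the members. Over the 4 groups at once, limma's F test gave adjusted p-values of 0.892 for miR-23a-3p, 0.922 for miR-23b-3p, 0.956 for miR-27a-3p, 0.422 for miR-27b-3p and 0.151 for miR-24-3p, and 5.93% of the tested miRNAs passed it.

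**Figure D3:**
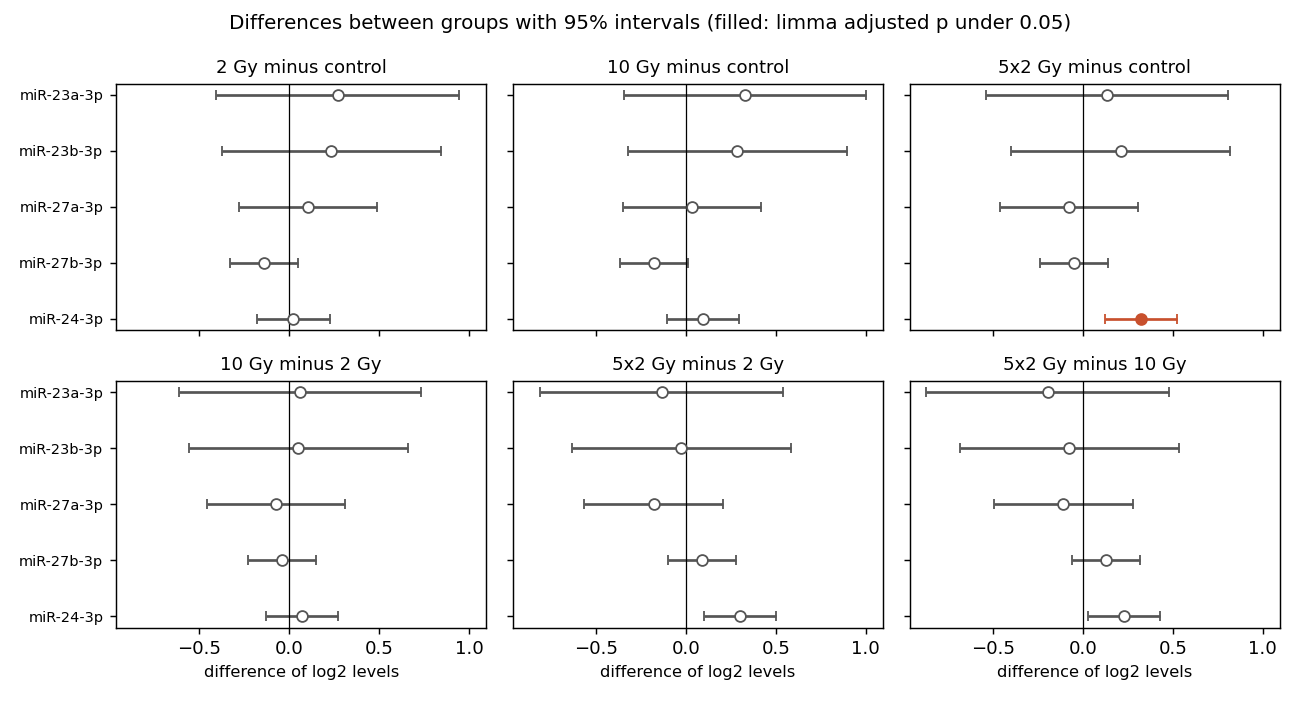
Difference of log2 levels between groups for each member (points) with 95% intervals, in the 6 comparisons; filled points have a limma adjusted p under 0.05. The one filled point is miR-24-3p in 5x2 Gy minus control, at 0.32, and the intervals of miR-23a-3p and miR-23b-3p are the widest of the 5 members in each comparison.

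Whether the a and b copies responded unequally was asked within each array, where the scaling cancels for values above the floor. The level of miR-23a-3p minus that of miR-23b-3p was 1.95 ± 0.11 in control cells, 1.98 ± 0.07 in 2 Gy cells, 1.99 ± 0.05 in 10 Gy cells and 1.87 ± 0.08 in 5x2 Gy cells (SD, n = 3 each). These differences reflect the probes as well as the miRNAs, so only their change between groups can be read, and the group means lay within 0.12 of each other. For miR-27a-3p minus miR-27b-3p the values were 2.27, 2.37 and 2.30 in control cells, 2.70, 2.40 and 2.57 in 2 Gy cells, 2.69, 2.72 and 2.16 in 10 Gy cells, and 2.38, 2.21 and 2.28 in 5x2 Gy cells. The 10 Gy arrays of slide 1 were with the 2 Gy arrays, and the 10 Gy array of slide 2 was below every other array. Arrays did not overlap between 2 Gy and control cells or between 5x2 Gy and 2 Gy cells (p = 0.1 each by exact permutation, the smallest possible). They overlapped in the other comparisons. These values rest in part on the dimmer miR-27b-3p probe, which was at the floor on 7 arrays. With the brighter miR-27b-3p probe alone, an alternative chosen after the data were seen, the difference was 1.47 ± 0.15 in control cells, 1.60 ± 0.19 in 2 Gy cells, 1.56 ± 0.30 in 10 Gy cells and 1.23 ± 0.15 in 5x2 Gy cells (SD, n = 3 each), and the arrays overlapped in all 6 comparisons. Its change between 5x2 Gy and control cells turned with the miR-27b-3p probe: it was -0.30 and -0.17 for the 2 miR-27a-3p probes against the brighter one, and 0.12 and 0.25 against the dimmer one.

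miR-24-3p was set against its cluster partners in the same way. Minus the mean of miR-23a-3p and miR-27a-3p, it was 0.05 ± 0.50 in control cells, -0.11 ± 0.21 in 2 Gy cells, -0.03 ± 0.40 in 10 Gy cells and 0.35 ± 0.01 in 5x2 Gy cells. The control arrays alone ran from -0.51 to 0.44 and so enclosed the 5x2 Gy arrays, and 10 Gy replicate 3, on slide 2, was at 0.43 against -0.27 and -0.26 for the other 10 Gy arrays. Minus the mean of miR-23b-3p and miR-27b-3p, it was 2.18 ± 0.43 in control cells, 2.16 ± 0.13 in 2 Gy cells, 2.22 ± 0.25 in 10 Gy cells and 2.43 ± 0.09 in 5x2 Gy cells (SD, n = 3 each). Against both sets of partners, the 5x2 Gy arrays lay above the 2 Gy arrays, by 0.46 and 0.27 (p = 0.1 each by exact permutation, the smallest possible). No slide held both of these groups, and arrays overlapped in the other comparisons. An exact permutation test of the F statistic over all 369600 splits of the 12 arrays gave p = 0.319 for the miR-23 copies, p = 0.209 for the miR-27 copies, p = 0.421 for miR-24-3p against the a partners and p = 0.613 for miR-24-3p against the b partners. Adjusted over the 4 differences, these were 0.561, 0.561, 0.561 and 0.613, and an unequal response within the family was not detectable with these 12 arrays.

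**Figure D4:**
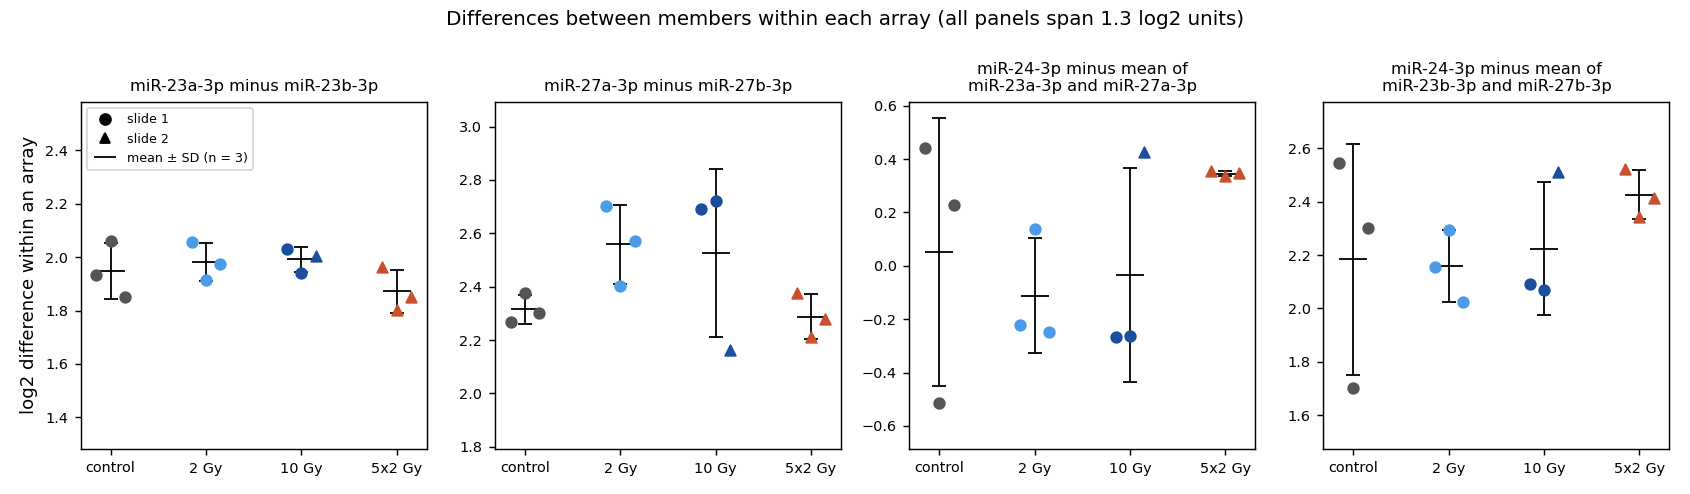
Difference between members within each array, in log2 units, in control, 2 Gy, 10 Gy and 5x2 Gy cells; circles are arrays of slide 1, triangles arrays of slide 2, and bars the mean ± SD of 3 arrays. The miR-23 copies keep nearly the same difference in all groups, and 10 Gy replicate 3, the triangle in the 10 Gy column, stands nearer to the 5x2 Gy arrays than to the other 10 Gy arrays in all panels but the first.

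The members differed in how much they varied between replicates. The pooled SD within groups was 0.37 for miR-23a-3p and 0.34 for miR-23b-3p, larger than for 44 and 42 of the 48 miRNAs detected on all arrays, whose median was 0.17. It was 0.21 for miR-27a-3p, 0.11 for miR-24-3p and 0.10 for miR-27b-3p, and 9 of the 48 varied less than miR-24-3p. The copies of miR-23, which lie in different clusters, had the most alike profiles: with each profile centred on its mean, the root mean square difference over the 12 arrays was 0.08 between miR-23a-3p and miR-23b-3p, the smallest of the 10 pairs of members. It was 0.19 between miR-27a-3p and miR-27b-3p, 0.19 between the cluster partners miR-23a-3p and miR-27a-3p, and 0.39 between miR-23a-3p and miR-24-3p, the largest of the pairs. These likenesses are descriptions over 12 arrays that share slides and scaling. Whether the probes of one copy also took up the other copy was not tested, so the likeness of the miR-23 copies may lie in the probes.

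Outside the family, miR-221-3p had the profile nearest to miR-23a-3p, miR-23b-3p and miR-27a-3p among 44 other miRNAs detected on all arrays, at root mean square differences of 0.12, 0.11 and 0.12. Next came miR-21a-5p (0.16) and miR-15b-5p (0.18) for miR-23a-3p, let-7e-5p (0.17) and miR-21a-5p (0.18) for miR-23b-3p, and miR-130a-3p and let-7b-5p (0.15 each) for miR-27a-3p. The nearest to miR-24-3p were let-7i-5p (0.11), miR-199a-5p (0.12) and miR-125a-5p (0.13). The nearest to miR-27b-3p were miR-31-3p, miR-130a-3p (0.13 each) and miR-20a-5p (0.14).

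Levels were also set against array brightness, and none of the 10 relations passed the adjustment. Each level is already divided by the brightness of its array, so a negative relation can arise from the division alone. The permutation p-values do not account for this, and the relations are given as a description. Over the 12 arrays, the level of miR-27a-3p was lower on brighter arrays (brightness on a log2 scale, Pearson r = -0.751, permutation p = 0.00539, Spearman rho = -0.622, permutation p = 0.0352), and r was -0.718 once the dimmest and the brightest array (control replicate 2 and 5x2 Gy replicate 2) were left out and -0.707 within the 8 arrays of slide 1. After adjustment over 10 relations its p-values were 0.0539 for r and 0.111 for rho. Corresponding r values were -0.586 for miR-23a-3p (adjusted permutation p = 0.111, rho = -0.504), -0.472 for miR-23b-3p (adjusted p = 0.148, rho = -0.518) and -0.397 for miR-27b-3p (adjusted p = 0.230, rho = 0.175). miR-24-3p ran the other way, with r = 0.641 and rho = 0.559 (adjusted permutation p = 0.111 and 0.125), but r was 0.365 without those 2 arrays and 0.263 within slide 1. The 4 arrays of slide 2 were too few for a value of their own.

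**Figure D5:**
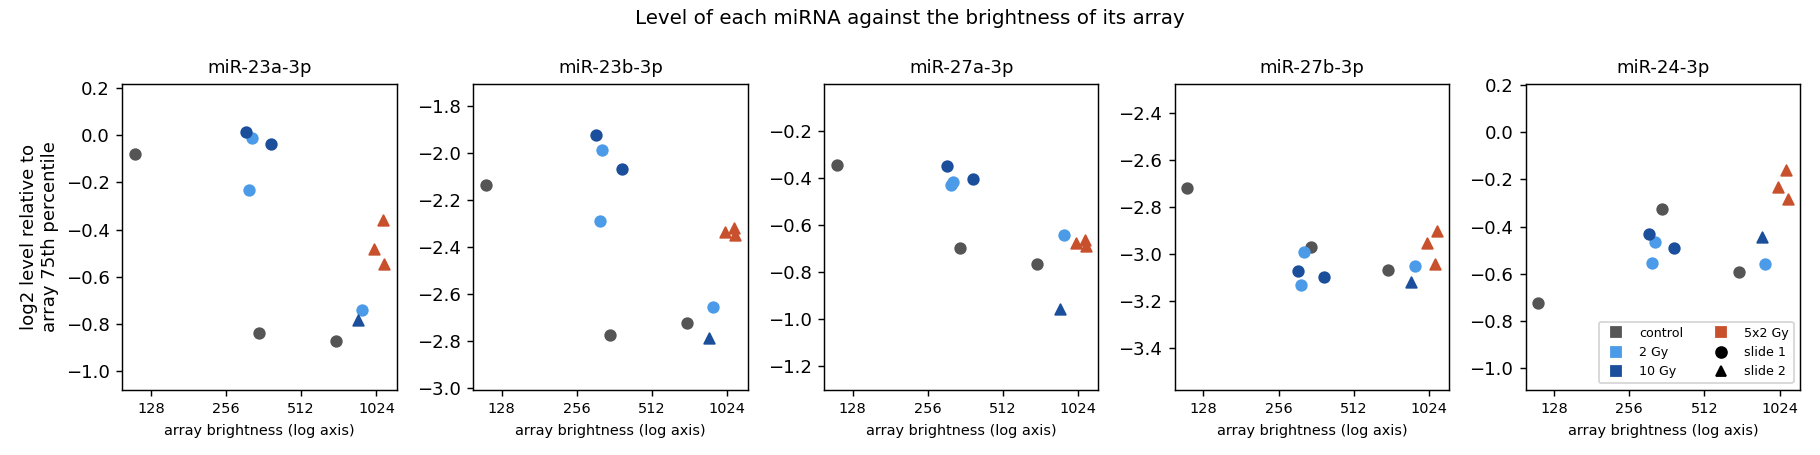
Level of each member against the brightness of its array (log axis, in scanner units), coloured by group, with circles for slide 1 and triangles for slide 2. Dim arrays tend to be high and bright arrays low for miR-23a-3p, miR-23b-3p and miR-27a-3p, and the 5x2 Gy arrays, the brightest of all, hold the highest levels of miR-24-3p. Each level was divided by that brightness, so the axes are not independent.

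Of 9 other arms of the clusters, including the 5p arms that are usually degraded, the array held 4: miR-27a-5p, miR-27b-5p, miR-24-1-5p and miR-24-2-5p. None was detected on any of the 12 arrays (0 of 4), so the arms that would tell Mir24-1 from Mir24-2 gave no level, and each has only an upper bound in all groups.

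Other miRNAs described as regulators of the DNA damage response were taken from a list of 31, of which 30 were on the array and 19 were tested. The 19 include miR-182-5p and miR-99a-5p, which were at the floor in every group, could not be called and draw the list's median difference toward 0. After 5x2 Gy, 4 of the 19 were higher than in control cells and 0 lower, with a median difference of 0.04 over the list; of all miRNAs tested, 12.7% were called in this comparison. They were miR-34b-5p, a p53-induced miRNA (1.21, limma adjusted p = 0.000888), miR-26a-5p, described as a repressor of ATM in human cells (0.44, adjusted p = 0.0354), miR-100-5p, also described as a repressor of ATM in human cells (0.23, adjusted p = 0.00743), and miR-107-3p (0.20, adjusted p = 0.00623). The mean level of miR-100-5p was -3.81 in 5x2 Gy cells and -4.04 in control cells, close to the floor of -4.06. One of its probes was at the floor on all 12 arrays. The other was at the floor on 2 arrays each of the control, 2 Gy and 10 Gy groups. Its differences and p-values therefore rest on floored values and their size is not measured. Only the 5x2 Gy group had all 3 arrays above the floor, so miR-100-5p may have been tested only through that group. Its call among the 4 is therefore not read as a change. One probe of miR-107-3p was at the floor on 2 control arrays. No slide held both 5x2 Gy and control arrays. With the slide as a block, 1 of the 118 miRNAs was called between these groups, against 15 without it, so at most 1 of the 4 calls on the list remained. The next members of the list by p-value did not pass: miR-7a-5p at -0.50, miR-125b-5p at 0.42, miR-103-3p at 0.24 and miR-26b-5p at 0.26, with adjusted p-values of 0.114 to 0.154. miR-34b-5p also passed after 10 Gy relative to control cells (0.85, adjusted p = 0.0239), the only one of the 19 and of all 118 miRNAs (0.847%), and 0 of the 19 passed after 2 Gy. Between 5x2 Gy and 2 Gy cells miR-34b-5p passed (0.67, limma adjusted p = 0.0259), where 4.24% of all miRNAs were called. The floored miR-100-5p also passed between 5x2 Gy and 2 Gy cells (adjusted p = 0.00973) and, alone of the 19, between 5x2 Gy and 10 Gy cells (adjusted p = 0.0470), where 2.54% of all miRNAs were called. With the slide as a block, 0 miRNAs were called in 10 Gy minus control, and 1 each in 5x2 Gy minus 2 Gy and 5x2 Gy minus 10 Gy.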

How the data were processed

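MicroRNAs of LLC1 cells were measured on 12 Agilent 1-colour arrays (Cy3). Per the submitters' processing notes, Agilent Feature Extraction 10.7.3.1 made the deposited files; their spot intensity is background-subtracted and detrended, per the file headers. The authors' deposited table holds log2 values, found to be log2 of the processed signal, raised to at least 1, plus an offset for each array (-0.27 to 0.51, within 1e-04), so that column means equal 1.98; column medians ran from -0.19 to 1.14. Spot flags deposited with the scanner files (control, outlier, well above background, saturated) served as filters, per the file headers; 0 spots were saturated.

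Control and outlier spots were left out, and spots of a probe averaged (2 probes per member). Arrays were scaled to the 75th percentile of the 78 probes that every array detected, with a floor of 0.0598 (log2 -4.06) set before the log. Detection of a probe needed a share above 0.5 of its spots flagged well above background; a level is the mean of probes detected on at least 3 arrays. Limma 3.58.1 (R 4.3.3) was fitted to 118 miRNAs on all 12 arrays with no covariates (8 residual and 0.45 prior degrees of freedom), two-sided, with Benjamini-Hochberg adjustment and a threshold of 0.05. On simulated data for 5x2 Gy minus control it recovered the mean size of known changes, which were larger than that of miR-24-3p. The simulation held no effect of slide or brightness, so it does not bear on smaller changes in this layout of arrays. Within-array differences were tested by exact permutation (scipy 1.17.1).

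All 5 members are named throughout; of the damage response list, those that passed are named and up to 4 others with the smallest p, and for each member the 3 most similar profiles. The members and lists were chosen with earlier results of these data known. Alternatives covered scaling, background (normexp on median signals with an offset of 50 or 1, since the files hold no mean signal), floor, filter, probe choice, blocks, covariates and left-out arrays. Same-numbered replicates of different groups did not deviate together (r -0.88 to 0.73 over 18 pairs, median -0.09, 6 over 0.1). The number of arrays limits precision. Sequences and their positions are RefSeq's on GRCm38.p6, while the array design names mm9, per the file headers. p-values rest on replicates that the labels call biological.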

Additional observations from a re-analysis of the deposited data

How the results depend on the processing

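Of 944 values of the members under other settings, 890 kept their side of the threshold without reversing while passing, and 109 of those changed sign while passing in neither setting. miR-24-3p in 5x2 Gy minus control was no longer past the threshold with median scaling (0.11), quantile scaling (0.30), normexp at an offset of 50 (0.19) or 1 (0.26), a floor 2 times higher or 4 times lower, no filter, detection on all 12 arrays or only the 2 groups compared (0.32 each), the slide as a block (0.31), brightness as a covariate (0.26), or 11 of 12 left-out arrays (0.21 to 0.43 over all 12). Of its 19 settings, 7 shifted the median miRNA by over 0.1 from the main setting (-0.47 to 1.63). Less the shift of each setting, its difference was 0.23 to 0.66 over all 19, to be read against 0.32 in the main setting. These values still contain the median difference of the main setting, which miR-24-3p exceeded by 0.15. With the replicate number as a block, which does not pair the samples, its value was 0.32 (limma adjusted p = 0.0699), 10 miRNAs were called in that comparison against 15, 0 in 10 Gy minus control and 3 in 5x2 Gy minus 2 Gy, and 0 members.

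Scaling over all probes, no scaling and the authors' log2 values leave brightness in the data and shifted the median miRNA in 5x2 Gy minus control by 1.51, 1.63 and 1.47. There miR-27a-3p reversed to 1.57, 1.75 and 1.37 and miR-27b-3p to 1.46, 1.54 and 1.45, and all 5 members passed under each. Scaling over all probes also reversed miR-23a-3p, miR-23b-3p and miR-27a-3p in 5x2 Gy minus 10 Gy (0.95, 1.07 and 1.04) and in 5x2 Gy minus 2 Gy (1.33, 1.44 and 1.29), with 5 members passing in each. Slide 2 alone reversed miR-23b-3p (0.45) and miR-27a-3p (0.28) in 5x2 Gy minus 10 Gy, but there 10 Gy is a lone array assumed to vary like the others. Members passing numbered 2 with brightness as a covariate, in 10 Gy minus control and in 5x2 Gy minus control, and 1 in 5x2 Gy minus 2 Gy with a covariate made from entries prone to rRNA, tRNA or GC-rich signal (the list covariate) or only the 2 groups compared. In 5x2 Gy minus control they numbered 0 in each setting listed above in which miR-24-3p was lost, brightness excepted. Left-out arrays gave 0 to 1 in 5x2 Gy minus control and in 5x2 Gy minus 2 Gy.

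The F test of miR-23a-3p passed with all-probe scaling (adjusted p = 0.00409) and brightness (0.0462), that of miR-23b-3p with all-probe scaling (0.00371) and no scaling (0.0456), and those of miR-27a-3p (0.0242) and miR-27b-3p (0.0111) with all-probe scaling. For miR-24-3p it passed with all-probe scaling (0.0375) and the list covariate (0.0219), and with arrays left out it ran from 0.0136 to 0.436. The within-array tests kept their side of the threshold in all 108 values under other settings (lowest adjusted p 0.0930 by exact permutation).

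The number of all miRNAs called moved further. In 5x2 Gy minus control (15) it was 102 with all-probe scaling, 86 with no scaling, 84 with the authors' values, 4 with median scaling (3 higher, 1 lower), 7 with quantile scaling (6 higher, 1 lower), 2 and 5 with normexp at 50 and 1 (0 and 1 higher), 7 and 25 with the higher and lower floor, 6 with no filter, 6 with detection on all arrays, 1 with the slide block, 28 with brightness (21 higher, 7 lower), 41 with the list covariate (29 higher, 12 lower), 32 with the total signal, and 6 to 16 with arrays left out. In 5x2 Gy minus 10 Gy (3) these counts were 90 with all-probe scaling, 24 with no scaling, 9 on slide 2 alone, with that lone array, and 0 to 1 with median or quantile scaling, normexp, the authors' values, the higher floor, no filter, detection on all arrays, the slide block or the list covariate, and 1 to 10 with arrays left out. In 5x2 Gy minus 2 Gy (5) they were 109 with all-probe scaling, 26 with no scaling, 2 with median scaling, quantile scaling, the authors' values or no filter, 0 with normexp, 8 with the lower floor or brightness, 1 with the slide block, 12 with the list covariate, and 3 to 11 with arrays left out. In 10 Gy minus control (1) they were 26 with brightness, 4 with quantile scaling, 2 with normexp at 50, the brightest probe, the total signal or only 2 groups, 0 with no scaling, the authors' values, no filter, the slide block, slide 1 alone or the list covariate, and 0 to 8 with arrays left out. In 2 Gy minus control (0) they were 6 with brightness, 2 with quantile scaling, 1 with normexp at 1, the brightest probe or the list covariate, and 0 to 6 with arrays left out. The causes were not tested. miR-27b-3p has no value with detection on all 12 arrays, since 1 control array did not detect it, slide 1 holds no 5x2 Gy array, and levels near the floor have no order.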
